A study of Papio anubis with 28 samples.

Results

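Tissue that regenerated on an SIS graft in the urinary bladder of the olive baboon (Papio anubis) was compared with the native bladder of the same animals by RNA sequencing. The libraries titled SIS Regen and SIS Native were taken, 5 of each, which is 10 of the 28 libraries in the count table. Each regenerated library was paired with the native library that carries the same animal code, F1, F2, F3, M1 or M2. SIS is read here as small intestinal submucosa, which is gut wall matrix freed of its cells and used as a scaffold for ingrowing tissue. The labels name primary bone marrow cells as the graft treatment, namely mesenchymal stromal cells (MSC) and CD34+ haematopoietic stem and progenitor cells (HSPC). The groups used are 5 SIS regenerated and 5 SIS native libraries, and for reference 4 PRS regenerated and 4 PRS native libraries with the same cell treatment, and 5 Entero ileum and 5 Entero native libraries, in which bowel augmented the bladder. All animals are labelled wild type. The sources used here do not give what PRS stands for, the ages of the animals, the interval between surgery and sampling, or which area of a graft was taken. The native libraries come from bladders that carried a graft, so there was no ungrafted bladder among them.

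The bladder wall has a urothelium on its inner face, a loose vascular lamina propria under it, and the detrusor, a thick coat of smooth muscle, outside. Umbrella cells on the urine side carry plaques of uroplakins that seal the surface, intermediate cells lie below them, and basal cells hold the sheet to its basement membrane. A scaffold that replaces a full thickness of wall has to be covered by urothelium and filled by muscle, vessels and nerves from its margins. Since a piece of wall holds mucosa and muscle in varying amounts, a level of RNA in bulk tissue depends on both: fewer cells of a type and less RNA per cell cannot be told apart here.

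The 10 libraries held 23496368 to 32891239 counts, with reads on 16265 to 18320 genes. Levels are given as CPM, the count of a gene relative to its library size after TMM scaling, and values by animal stand in the order F1, F2, F3, M1 and M2. A gene with 0 reads in all 5 libraries of a group may still be present at up to 0.0216 CPM over that group. The rows of XIST, the RNA of the inactive X chromosome of female mammals, separated the F codes from the M codes. They summed to between 1015 and 3153 reads in the 6 libraries of F1, F2 and F3 and to 0 reads in the 4 libraries of M1 and M2, in both tissues. Which F or M animal a library came from was not tested. Mitochondrial genes took 8.24% ± 1.99 of counts in regenerated tissue and 8.65% ± 0.935 in native bladder (SD, n = 5 each; two-sided exact permutation test p = 0.698). Both tissues carried the defining transcripts of bladder, the uroplakins and GATA3 of urothelium and ACTG2 and DES of muscle, in all 10 libraries. Of the markers of intestinal epithelium, VIL1, an actin-bundling protein of microvilli, was at most 0.233 CPM in regenerated tissue, against at most 0.2 CPM in native bladder. Other members of that list were higher, and LGALS4, a galectin, lay between 9.26 and 181 CPM in regenerated tissue, against 5.77 to 167 CPM in native bladder.

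No gene passed the test between regenerated tissue and native bladder. With edgeR's quasi-likelihood test, 0 of 17177 genes (0%) had an adjusted p under 0.05, and the smallest adjusted p was 0.332. Before adjustment 640 genes (3.73%) were higher and 195 (1.14%) lower at p under 0.05, together 4.86% of the genes. With the animal as a block this share was 3.05%. The median standard error of a log2 fold change was 0.48, and the 95% interval of the fold change lay inside a 2-fold change in either direction for 33.2% of the genes and inside a 4-fold change for 64.5%. DESeq2 called 63 genes higher (0.367%) and 7 lower (0.0408%), and limma voom with quality weights called 2 higher (0.0116%), KRT16 and a Y_RNA row. Of the 63 genes that DESeq2 called higher, 46 had their highest regenerated value in animal F2, and 36 had 1 regenerated library over 4-fold above the next. Since nothing passed in edgeR, the fold changes below are values with their errors and not calls.

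The 5 animals differed in direction more than the 2 tissues differed on average. In animals F1 and F2 the regenerated tissue carried more muscle RNA and less urothelial RNA than the native bladder, and in F3, M1 and M2 it carried less muscle RNA and more urothelial RNA. All 21 tested smooth muscle genes and 20 of the 21 tested genes of umbrella and intermediate urothelium followed this division of the animals, in opposite directions. Over all genes tested the same 2 patterns held 15.3% and 15.3% of the genes. The division was noticed in these values and carries no test. In the regenerated libraries the mean log2 CPM of the muscle genes was 9.18, 9.33, 7.48, 6.96 and 7.76, against 8.17, 7.44, 9.31, 10.69 and 10.46 in the native libraries. That of the urothelial genes was 6.64, 4.39, 7.93, 7.07 and 7.76 in the regenerated libraries, against 7.60, 7.54, 6.96, 3.40 and 4.81 in the native ones. The native pieces of M1 and M2 were the richest in muscle RNA and the poorest in urothelial RNA of the 5, and the regenerated piece of F2 was the richest in muscle RNA and the poorest in urothelial RNA on its side.

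**Figure D1:**
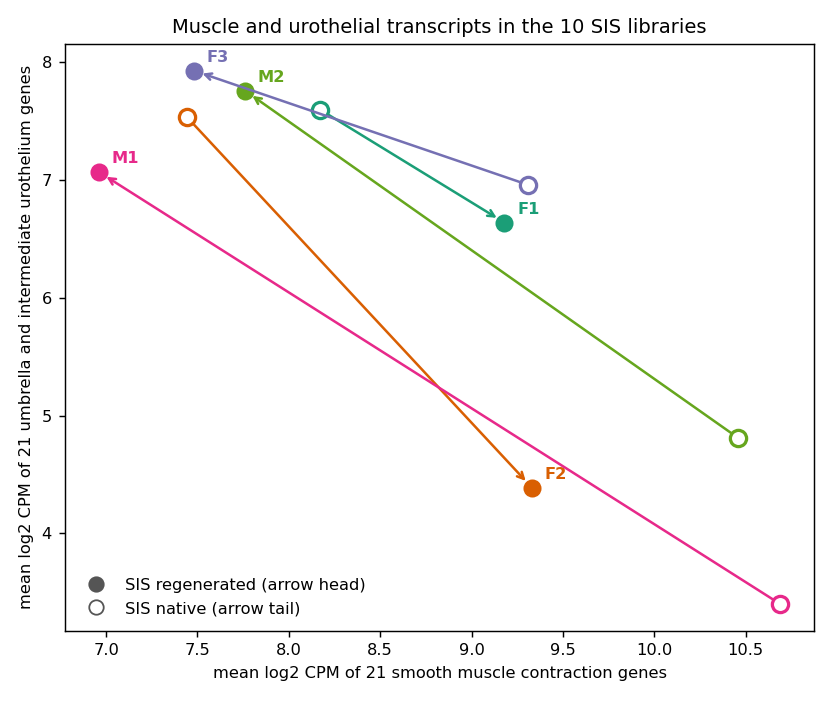
Mean log2 CPM of 21 smooth muscle genes (x axis) and of 21 umbrella and intermediate urothelium genes (y axis) in each SIS library, with an arrow from the native bladder (open circle) to the regenerated tissue (filled circle) of each animal. The arrows of F1 and F2 point toward more muscle and less urothelium and those of F3, M1 and M2 the opposite way. M1 has the longest arrow on the muscle axis, with 6.96 in regenerated tissue and 10.69 in native bladder.

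The likeness of a regenerated library to its own native bladder differed between the animals. Pearson's r of log2(CPM + 1) over the genes tested, between the regenerated tissue and the native bladder of its own animal, was 0.981 in F1, 0.885 in F2, 0.973 in F3, 0.850 in M1 and 0.899 in M2. In F1 the own native bladder was the most alike of the 5, while it ranked 4 in F2, 3 in F3, 5 in M1 and 4 in M2. The regenerated tissue of M1 reached r = 0.951 with the native bladder of another animal. Pairs of regenerated libraries had a median r of 0.943 (range 0.864 to 0.975, 10 pairs), and pairs of native libraries 0.942 (range 0.870 to 0.975, 10 pairs). The SD of log2 CPM between animals had a median of 0.64 in regenerated tissue and 0.52 in native bladder, and was larger in regenerated tissue for 59.2% of the genes. These r values are across genes, which are not independent of each other.

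The uroplakins, the plaque proteins of umbrella cells, were present in every regenerated library. UPK1A (ENSPANG00000018900) stood at 818, 71, 1919, 640 and 1658 CPM in regenerated tissue, against 1868, 1891, 1175, 70.3 and 357 CPM in native bladder. The groups overlapped almost completely, and the lowest values of each, F2 among the regenerated and M1 among the native libraries, were alike. UPK1B, UPK2 and UPK3A had the same 3 animals higher and the same 2 lower, with log2 fold changes of 0.07 (SE 1.01), -0.12 (SE 1.07) and 0.41 (SE 0.86). GATA3, a transcription factor of urothelial identity, averaged 273 ± 135 CPM in regenerated tissue, against 271 ± 214 CPM in native bladder (SD, n = 5 each). KRT20, the keratin of mature umbrella cells, averaged 4.65 ± 3.31 CPM in regenerated tissue, against 4.79 ± 5.11 CPM in native bladder. The urothelial list had 0 members at an unadjusted p under 0.05 in either direction, and its median log2 fold change was 0.32, against 0.03 over all genes tested. That median was 0.70 with the animal as a block and -0.17 with the block and without animal M1. KRT13, a keratin of intermediate cells, was the member with the smallest p. It stood at 28.7, 49.8, 337, 85.8 and 845 CPM in regenerated tissue, against 59.9, 130, 22.1, 6.22 and 23.3 CPM in native bladder. The log2 fold change of KRT13 was 2.48 (SE 1.26) and its edgeR adjusted p was 1. Its values were highest in the regenerated tissue of M2 and F3, above all native ones.

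Basal urothelium was the epithelial layer with the most unadjusted differences. Of 17 tested genes 5 were higher at an unadjusted p under 0.05 and 0 lower, with a median log2 fold change of 0.86. Among these were CD44, KRT17, KRT14 and ITGA6. Without the regenerated library of F2 the count was 1. CD44, a hyaluronan receptor of basal cells and leukocytes, stood at 287, 904, 308, 318 and 429 CPM in regenerated tissue, against 291, 297, 233, 135 and 147 CPM in native bladder, higher in 4 of 5 animals. KRT17, a keratin of basal and injured epithelium, stood at 7.46, 230, 14.1, 94.3 and 57.9 CPM in regenerated tissue, against 4.74, 27.7, 2.36, 0.532 and 1.32 CPM in native bladder. It was higher in each animal, although the native bladder of F2 exceeded the regenerated tissue of F1 and F3. KRT14, a keratin of basal progenitors, had 103 reads in regenerated tissue and 2 in native bladder, with no read in the regenerated tissue of F1 and M2. The read ratio was 51.4, with a 95% interval of 13.9 to 430 that covers counting error only. The log2 fold change of KRT14 was 5.31 (SE 2.35), with an edgeR adjusted p of 0.972. TP63, the transcription factor of basal cells, had a log2 fold change of 0.48 (SE 0.81).

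KRT16 (ENSPANG00000021539), a keratin of stressed and regenerating stratified epithelium, separated the tissues in all 5 animals. It stood at 7.8, 11, 12.9, 7.5 and 5.27 CPM in regenerated tissue, against 2.05, 0.633, 0, 0.737 and 0 CPM in native bladder. The regenerated values lay close together and all above the native ones. Over all genes tested, 107 (0.623%) were higher and 90 (0.524%) lower in this sense of groups that do not overlap. The log2 fold change was 3.68 (SE 1.38) with an adjusted p of 0.866 in edgeR, and 6.86 with an adjusted p of 0.0447 in limma voom with quality weights. With duplicateCorrelation for the animal, limma voom on the 10 SIS libraries called 0 genes, with a smallest adjusted p of 0.341 and 2343 genes at an unadjusted p under 0.05. KRT14, KRT16 and KRT17 resemble each other closely in sequence, so the division of reads among them is uncertain. KRT4, a keratin of moist stratified epithelium, stood at 10.2, 86.6, 249, 162 and 744 CPM in regenerated tissue, against 11.8, 76.2, 3.48, 8.23 and 11.7 CPM in native bladder. Its 3 highest values were the regenerated tissue of F3, M1 and M2. Of 13 tested genes of squamous differentiation, KRT16 and KRT4 were the 2 at an unadjusted p under 0.05, and the list mean was higher in 3 of 5 animals. DSG3, a desmosomal cadherin, was higher in 4 of 5 animals with a log2 fold change of 1.15 (SE 0.94).

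Among junction genes 11 of 16 followed the division of the animals seen for urothelium. Of 14 epithelial channels and transporters, 3 were higher at an unadjusted p under 0.05, namely CFTR, KCNJ15 and AQP3. In the same list 8 followed the division of the animals seen for urothelium. The count was 1 without the regenerated library of M1 and 1 without the native library of M1. The log2 fold change of CFTR was 5.00, and 1.41 without the regenerated library of M1. KCNJ15, an inward-rectifier potassium channel, stood at 4.58, 4.91, 9.95, 13.1 and 14.1 CPM in regenerated tissue, against 4.12, 1.21, 2, 0 and 1.15 CPM in native bladder. The groups did not overlap. AQP3, a channel for water and glycerol in the basolateral membrane, stood at 297, 911, 238, 268 and 588 CPM in regenerated tissue, against 258, 222, 133, 17.3 and 36.7 CPM in native bladder. It was higher in each animal, and highest in F2, whose umbrella cell transcripts were the lowest. CLDN1, a claudin of stratified epithelium, was higher in 5 of 5 animals and averaged 22 ± 5.52 CPM in regenerated tissue, against 12.3 ± 7.81 CPM in native bladder.

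**Figure D2:**
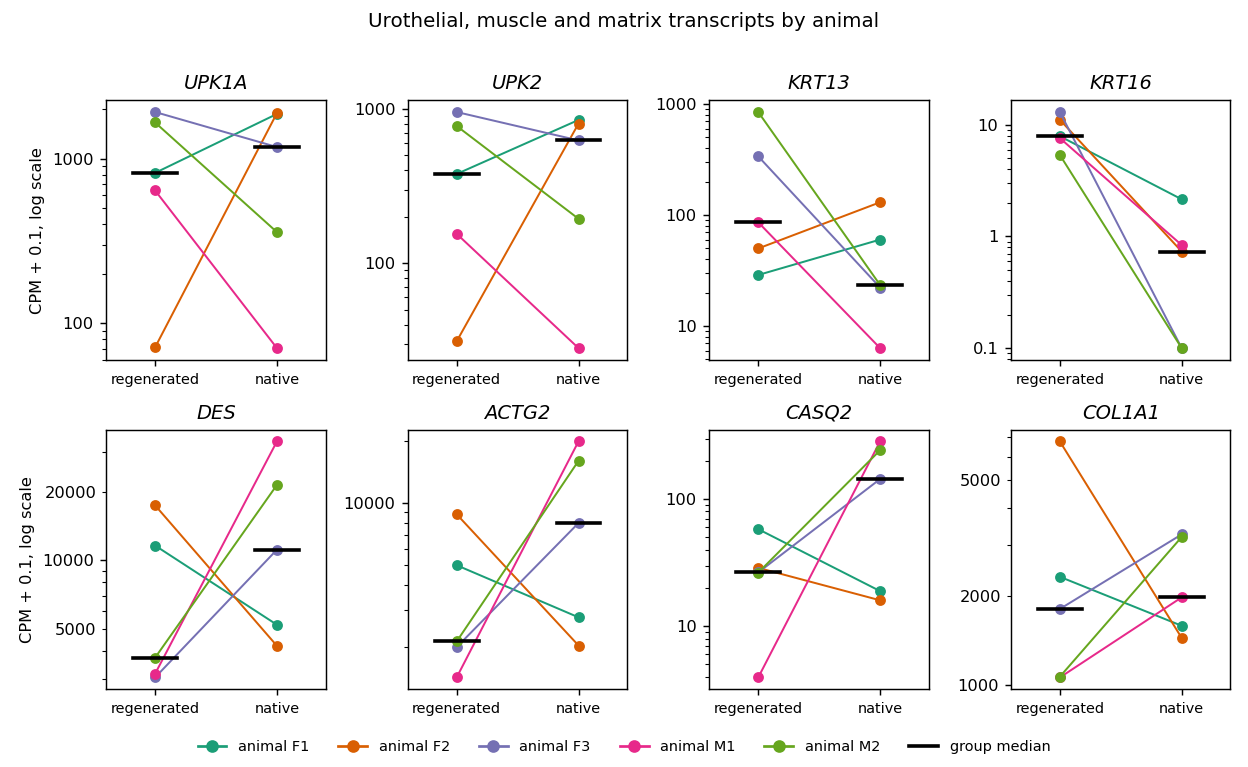
CPM (log scale, with 0.1 added) of urothelial genes (UPK1A, UPK2, KRT13, KRT16), muscle genes (DES, ACTG2, CASQ2) and the collagen COL1A1 in regenerated tissue (left) and native bladder (right), with a line per animal and a black bar at each group's median. The lines of UPK2 and DES cross in opposite directions, while those of KRT16 all run down from regenerated tissue to native bladder.

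Genes of mucins and secretory epithelium had a list median of 2.04, the second largest in size among the 43 lists, and most of the fold change lay in 1 library. Of 19 tested genes, 4 were higher at an unadjusted p under 0.05, and without the regenerated library of M1 this count was 0 and the median 0.98. FCGBP (ENSPANG00000017440), a mucus protein that binds the Fc part of immunoglobulin G, stood at 6.31, 24.2, 124, 4985 and 54.7 CPM in regenerated tissue, against 15.7, 34.5, 7.35, 2.37 and 4.95 CPM in native bladder. LCN2, an iron-binding lipocalin of epithelia and neutrophils, stood at 1.19, 67.2, 16.5, 2259 and 30.2 CPM in regenerated tissue, against 2.91, 26.7, 0.999, 0.45 and 3.33 CPM in native bladder. For both genes the regenerated tissue of M1 exceeded every other library by more than an order of magnitude, and F3 and M2 also stood above their own native bladder. CLCA1, a secreted regulator of mucus, was spread more evenly, with 95.4, 118, 677, 2215 and 1012 CPM in regenerated tissue, against 381, 116, 50.9, 1.35 and 20.4 CPM in native bladder.

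The regenerated tissue of M1 stood apart beyond the mucins. With a rule set after the values were seen, 88 genes reached at least 5 CPM there and more than 4 times the highest of the other 9 SIS libraries, and 12 genes lay more than 4-fold below the lowest of the others. RETNLB, a resistin-like protein that goblet cells secrete, was at 34.2 CPM there and had no read in any other SIS library. By counting error alone this is at least 409-fold higher over the group, against a floor of 3 counts over the native group. The log2 fold change of RETNLB was 10.56 (SE 3.69), with an edgeR adjusted p of 0.781, and 0.00 without the regenerated library of M1. MSLN, mesothelin, was at 282 CPM there and at 4.08 CPM or less in the other 9. TCN1, a carrier of vitamin B12 in secretions, was at 15.7 CPM against at most 0.271 CPM, and MUC13, a membrane mucin, at 47.9 CPM against at most 2.35 CPM. FOLR1, a folate receptor, and SLC34A2, a phosphate transporter, were at 45 and 8.25 CPM against at most 1.45 and 0.421 CPM. These are secreted or apical proteins of glandular epithelia. CDX2, the transcription factor of intestinal identity, had no read in this library. Its 12 reads in regenerated tissue lay in F2 alone, at 0.561 CPM, with no read in native bladder. By counting error alone this is at least 3.99-fold higher over the group. The log2 fold change of CDX2 was 4.41 (SE 1.75), with an edgeR adjusted p of 0.928, and 0.00 without the regenerated library of F2. Among the genes that were lowest in the regenerated library of M1 was P2RX1, the ATP receptor of detrusor muscle. It was at 4.46 CPM there against at least 57.2 CPM in the others. TACR2, a tachykinin receptor of smooth muscle, was at 4.18 CPM against at least 39.5 CPM.

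Smooth muscle transcripts differed by animal, as above, and no member of the contraction list had an unadjusted p under 0.05. DES (ENSPANG00000017460), the intermediate filament of muscle, stood at 11633, 17492, 3052, 3167 and 3728 CPM in regenerated tissue, against 5208, 4205, 11155, 33443 and 21507 CPM in native bladder. ACTG2 (ENSPANG00000008205), the actin of visceral smooth muscle, stood at 4979, 8816, 1988, 1415 and 2118 CPM in regenerated tissue, against 2777, 2025, 7992, 19949 and 16041 CPM in native bladder. Both were thus abundant in every regenerated library, and the regenerated values of F1 and F2 lay within the native range. Their log2 fold changes were -0.95 (SE 0.99) and -1.34 (SE 1.09), and the list median was -1.25. The members with the smallest p, all of mature contractile cells, were further from 0. CASQ2, a calcium store protein, had -2.30 (SE 1.28), SYNM, an intermediate filament linker, -1.97 (SE 1.25), KCNMB1, a subunit of the large-conductance potassium channel, -1.50 (SE 0.97), and MYLK, the kinase that starts contraction, -1.56 (SE 1.02). CASQ2 stood at 58, 28.7, 26.4, 3.85 and 26.3 CPM in regenerated tissue, against 18.8, 15.9, 144, 285 and 243 CPM in native bladder.

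Of 19 receptors and channels of bladder contraction, 0 were higher and 2 lower at an unadjusted p under 0.05, with a list median of -0.37. 1 was PDE5A, the phosphodiesterase that degrades cyclic GMP, with a log2 fold change of -1.56 (SE 0.75). CACNA1C, the pore of the L-type calcium channel, averaged 35 ± 7.1 CPM in regenerated tissue, against 87.6 ± 76.7 CPM in native bladder, and ITPR1, the receptor that releases stored calcium, 57.3 ± 27.5 and 119 ± 75.1 CPM (SD, n = 5 each). PDE5A, CACNA1C and ITPR1 were each lower in F3, M1 and M2 and higher in F1 and F2, with the same division as the contractile genes. Of the markers of skeletal muscle, CKM, the creatine kinase of striated muscle, was at 0.281 CPM or less in regenerated tissue, against 0.135 CPM or less in native bladder. Other members were higher, and ACTN3, an actinin of fast muscle fibres, lay between 3.84 and 20 CPM in regenerated tissue, against 11.8 to 62.2 CPM in native bladder.

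Of the 26 genes of fibrillar collagen and scar, 18 followed the division of the animals seen for muscle. COL1A1 (ENSPANG00000022601), a chain of type I collagen, stood at 2335, 6778, 1812, 1057 and 1063 CPM in regenerated tissue, against 1588, 1443, 3260, 1986 and 3194 CPM in native bladder. The regenerated tissue of F2 held the highest value of the 10, those of F1 and F3 lay within the native range, and those of M1 and M2 lay below it. Without F2 the log2 fold change was -0.55, against 0.19 (SE 0.77) with it. COL3A1, of type III collagen, gave -0.36 without F2 and 0.29 (SE 0.59) with it. DCN, decorin, which binds collagen fibrils, averaged 3173 ± 2441 CPM in regenerated tissue, against 4116 ± 1372 CPM in native bladder. In the same list 2 were higher at an unadjusted p under 0.05 and 0 lower. 1 was TNC, tenascin C, a matrix protein of wounds, which was at 1544 CPM in the regenerated tissue of F2 and at 39.7 to 143 CPM in the other 4, against 28.3 to 81.9 CPM in native bladder.

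Genes of elastic fibres and basement membranes had a median of -0.59 over 22 tested members, with 0 at an unadjusted p under 0.05 in either direction, and 19 of the 22 followed the division of the animals seen for muscle. MFAP5, a protein of microfibrils, stood at 173, 193, 192, 22.9 and 23.1 CPM in regenerated tissue, against 77.6, 51.5, 670, 400 and 504 CPM in native bladder. The regenerated tissue of M1 and M2 lay below every other library. FN1, fibronectin, NID1, nidogen 1, and HSPG2, perlecan, had log2 fold changes of -1.15 (SE 0.85), -1.09 (SE 0.65) and -0.95 (SE 0.58). Of 19 matrix proteases and their inhibitors, 7 were higher at an unadjusted p under 0.05 and 0 lower, with a median of 1.28. Without the regenerated library of F2 the count was 2 and the median 0.17. MMP13, a collagenase, was not highest in F2, with 1.97, 0.842, 0.38, 10.2 and 0.349 CPM in regenerated tissue, against 0.0808, 0.0904, 0.04, 0 and 0 CPM in native bladder. All regenerated values lay above all native ones at these low levels, and the log2 fold change was 5.82 (SE 1.86, adjusted p = 0.665 in edgeR) and 4.18 without M1.

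Transcription factors that place mesenchyme along the body had a median of -0.72 over 24 tested genes, and the list mean was lower in 4 of 5 animals. HOXD13, the HOX factor of the urogenital and distal limb region, stood at 31, 4.11, 12.9, 3.21 and 3.53 CPM in regenerated tissue, against 20.2, 12.1, 37, 101 and 58.2 CPM in native bladder. Animal F1 alone was higher, and F2, whose muscle transcripts were high, was lower. The log2 fold change was -2.06 (SE 0.79, adjusted p = 0.901 in edgeR), and HOXD13 was the 1 member at an unadjusted p under 0.05. PITX1, a hindlimb and cloacal factor, was lower in 4 of 5 animals and averaged 114 ± 51.6 CPM in regenerated tissue, against 260 ± 106 CPM in native bladder. HOXD10 and MEIS1 had log2 fold changes of -1.11 (SE 0.55) and -0.94 (SE 0.47). Among 23 WNT and hedgehog genes, SFRP2, a secreted WNT modulator of fibroblasts, was the 1 at an unadjusted p under 0.05. It stood at 122, 39, 44.2, 9.23 and 8.49 CPM in regenerated tissue, against 79.7, 55.8, 153, 146 and 279 CPM in native bladder. WNT2, a mesenchymal WNT, had -2.12 (SE 1.11), and LEF1, a nuclear partner of beta-catenin, was higher in 5 of 5 animals with a mean of 2.92 ± 1.07 CPM in regenerated tissue, against 1.05 ± 0.898 CPM in native bladder. The stromal marker PDGFRA, a receptor of platelet-derived growth factor, had a log2 fold change of -0.61 (SE 0.45). CD248, a glycoprotein of stromal cells, averaged 122 ± 90 CPM in regenerated tissue, against 243 ± 111 CPM in native bladder.

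Endothelial transcripts were present in all regenerated libraries. PECAM1, the adhesion molecule of endothelium, stood at 85.4, 125, 72.6, 84.9 and 58.5 CPM in regenerated tissue, against 80.7, 42.6, 87.8, 133 and 145 CPM in native bladder. VWF, von Willebrand factor, had a log2 fold change of -0.27 (SE 0.45), and CDH5, the cadherin of endothelial junctions, 0.58 (SE 0.48). Of 21 endothelial genes, 2 were higher at an unadjusted p under 0.05, SELE and NOS3. SELE, the selectin of inflamed endothelium, stood at 0.136, 62, 0.734, 2.15 and 6.59 CPM in regenerated tissue, against 0.108, 0.573, 0, 0 and 1.07 CPM in native bladder. NOS3, the endothelial nitric oxide synthase, was at 40 CPM in the regenerated tissue of F2 and at 3.53 to 6.78 CPM in the others, against 3.04 to 4.8 CPM in native bladder. LYVE1, a hyaluronan receptor of lymphatic endothelium and of some macrophages, stood at 29.5, 23.1, 31.7, 17.2 and 11.7 CPM in regenerated tissue, against 26.4, 30.9, 86.2, 71.6 and 99.7 CPM in native bladder. It was the 1 of 7 lymphatic genes at an unadjusted p under 0.05, lower in 4 of 5 animals, with a log2 fold change of -1.48 (SE 0.69).

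Neuronal transcripts were dominated by the native bladder of M1. NEFL (ENSPANG00000011988), the light neurofilament, was at 44.7 CPM there, at 0 to 0.633 CPM in the other native libraries and at 0 to 0.272 CPM in regenerated tissue. PRPH, peripherin, a filament of peripheral neurons, was at 43.8 CPM and STMN2, a growth cone protein, at 57.1 CPM in the same library, against at most 2.61 and 3.46 CPM in the other 9. By the rule above, 31 genes stood apart there, among them SST, somatostatin, at 48.1 CPM, NPY, neuropeptide Y, at 49.7 CPM, and RET, the receptor of enteric neuron precursors, at 32.4 CPM. Of 20 neuronal genes, 1 was higher and 4 were lower at an unadjusted p under 0.05, with a median of -0.98. Without the native library of M1 the counts were 2 and 0 and the median was 0.26. VIP, a relaxant neuropeptide, had no read in regenerated tissue and 19 reads in native bladder. By counting error alone this is at least 6.35-fold lower over the group. The native reads lay in F3, M1 and M2, at 0.04, 0.45 and 0.299 CPM. The log2 fold change of VIP was -5.09 (SE 2.12), with an edgeR adjusted p of 0.936. TAC1, the precursor of substance P, was the neuronal gene in the other direction. It stood at 0.882, 21, 2.99, 34.7 and 3.8 CPM in regenerated tissue, against 0.647, 1.3, 0.36, 4.54 and 0.768 CPM in native bladder, higher in each animal. The glial markers SOX10 and S100B had log2 fold changes of -1.29 (SE 0.99) and 0.12 (SE 0.96). Of 15 tested genes of Schwann cells and glia, 7 were above 0 and 8 below, with a median of -0.29.

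Immediate early genes were higher in each animal as a list. These genes are transcribed within minutes of a stimulus such as growth factors, stretch, injury or handling of tissue. Of 30 tested, 16 were higher at an unadjusted p under 0.05 and 0 lower, 12 were higher in 5 of 5 animals, and the median log2 fold change was 1.38. Over all genes tested, 729 (4.24%) were higher and 512 (2.98%) lower in 5 of 5 animals. The list mean was higher by 0.20 log2 units in F3, the least, and by 1.75, 2.27 and 2.30 log2 units in F2, M1 and M2. Without the regenerated library of F2 the count was 7 and the median 0.98, and DESeq2 called 7 of the 30. DUSP5, a phosphatase that acts on ERK, stood at 86.5, 284, 12.8, 131 and 111 CPM in regenerated tissue, against 19.1, 33.3, 12, 7.86 and 7.81 CPM in native bladder. FOSL1, a FOS-related subunit of the factor AP-1, stood at 14.7, 252, 1.66, 11.8 and 37.5 CPM in regenerated tissue, against 1.32, 3.29, 0.719, 1.06 and 0.0427 CPM in native bladder. Both were higher in each animal, least in F3. CSRNP1, MYC and FOSL2 were also higher in 5 of 5 animals, with log2 fold changes of 2.23 (SE 0.58), 1.93 (SE 0.51) and 1.47 (SE 0.39) and an adjusted p of 0.426 each in edgeR. FOS and JUN themselves had -0.12 and 0.16. The sources used here do not give the time between removal and preservation of each piece, and its bearing on these values was not tested.

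Cytokines and chemokines were, as lists, higher in each animal, but by little in some. The least was 0.08 log2 units in F3 for cytokines and 0.28 in F1 for chemokines. Of 27 genes of cytokines and acute inflammation, 14 were higher at an unadjusted p under 0.05 and 0 lower, with a median of 2.20, the largest of the 43 lists. Of 20 chemokines, 8 were higher and 0 lower, with a median of 1.38. Without the regenerated library of F2 these counts were 6 and 3 and the medians 1.01 and 0.70. LIF (ENSPANG00000009277), a cytokine of the IL6 family, stood at 6.04, 260, 4.02, 34 and 11 CPM in regenerated tissue, against 1.51, 2.98, 2.72, 2.33 and 0.512 CPM in native bladder. Its groups did not overlap, and its log2 fold change of 4.96 (SE 1.07) had the smallest unadjusted p of the genes named here, with an adjusted p of 0.332 in edgeR and 8.07e-06 in DESeq2. CSF3, the growth factor of neutrophils, stood at 0.814, 35.6, 0.707, 35.3 and 1.51 CPM in regenerated tissue, against 0, 0.543, 0.0799, 0 and 0.0427 CPM in native bladder. It too did not overlap, with high values in both F2 and M1. CCL22, a chemokine of T cell recruitment, stood at 5.36, 17.3, 1.63, 2.01 and 5.27 CPM in regenerated tissue, against 1.81, 1.45, 0.24, 0.246 and 0.171 CPM in native bladder, higher in each animal. CXCL8 (ENSPANG00000018599), which attracts neutrophils, was higher in each animal as well, but by little in F3, where it was at 0.299 CPM in regenerated tissue against 0.2 CPM in native bladder. CSF3R, the receptor of CSF3 on neutrophils, was with a mean of 1.05 ± 0.758 CPM in regenerated tissue, against 0.624 ± 0.236 CPM in native bladder, and the neutrophil list had a median of -0.02.

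Many of these genes were highest in the regenerated tissue of F2. By the rule above, 199 genes stood apart there on the high side, the most of the 10 libraries, and 41 on the low side, while 6 of the other libraries had 0 to 3 on the high side. MMP3, stromelysin, was at 814 CPM against at most 2.14 CPM in the other 9. IL6, the central cytokine of acute inflammation, was at 599 CPM against at most 5.49 CPM. MMP1, a collagenase, was at 2092 CPM against at most 34.3 CPM, and CCL2, which attracts monocytes, at 1196 CPM against at most 23.9 CPM. HMOX1, haem oxygenase, an enzyme of oxidative stress, was at 906 CPM, against 5.13 to 9.73 CPM elsewhere. The list also held BDKRB1, the inducible bradykinin receptor, at 534 CPM, IL11 at 110 CPM, and TNFAIP6, a hyaluronan-binding protein of inflammation, at 1453 CPM. On the low side was TXNIP, a glucose-responsive inhibitor of thioredoxin, at 42.6 CPM against at least 296 CPM elsewhere. DNAJB1, a chaperone of the heat shock response, was at 366 CPM there and at 110 to 197 CPM in the other regenerated libraries, against 69.1 to 165 CPM in native bladder. Without this library the log2 fold changes of MMP3 and HMOX1 were 0.07 and -0.18, against 7.58 (SE 1.77) and 4.62 (SE 1.15) with it. Those of LIF and CXCL8 were 2.77 and 3.52.

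**Figure D3:**
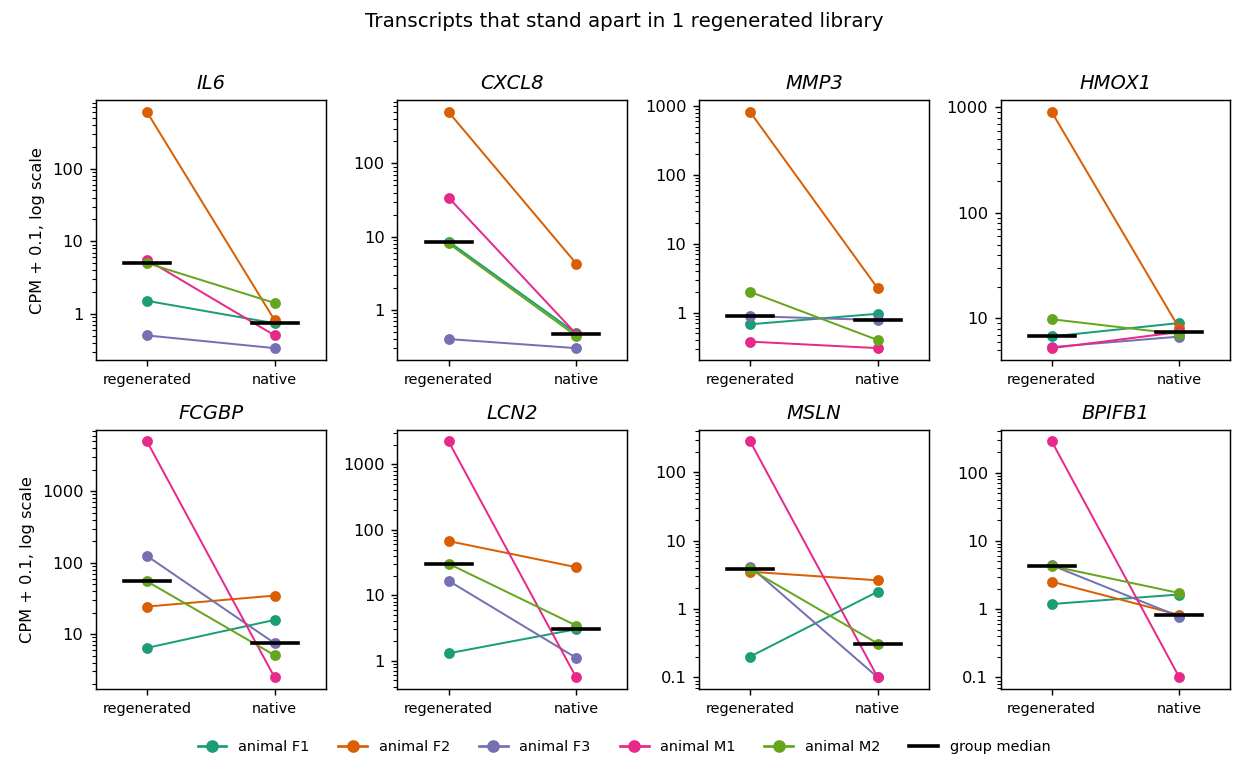
CPM (log scale, with 0.1 added) of 4 genes that were highest in the regenerated tissue of F2 (IL6, CXCL8, MMP3, HMOX1) and 4 that were highest in that of M1 (FCGBP, LCN2, MSLN, BPIFB1), with regenerated tissue on the left, native bladder on the right, a line per animal and black bars at the medians. In each panel 1 line starts far above the rest, at 599 CPM for IL6 and at 4985 CPM for FCGBP.

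Transcripts of T and natural killer cells were more even among the regenerated libraries, with list means of 1.39 to 2.41 log2 CPM. Those of the cytokine list were 1.27 to 4.86. The differences from native bladder were not more even, with an SD over the animals of 1.23 log2 units, against 1.15 for cytokines. The list of T and natural killer cells had a higher mean in 5 of 5 animals, by 0.26 to 3.03 log2 units. The largest difference was in M1, whose native bladder was the lowest of the 10. It was 1.99 in M2 and at most 0.59 in F1, F2 and F3. Of 27 tested genes, 3 were higher at an unadjusted p under 0.05 and 6 were higher in each animal, with a median of 0.67. CD3E, of the T cell receptor complex, stood at 7.94, 18.3, 14.2, 9.2 and 18.2 CPM in regenerated tissue, against 11.4, 17.7, 8.91, 1.39 and 2.56 CPM in native bladder. CD8A, of cytotoxic T cells, ranged over 11.9 to 15.4 CPM in regenerated tissue, against 1.56 to 16.1 CPM in native bladder. GZMB, a protease of cytotoxic granules, was higher in 5 of 5 animals, at 16.7, 78.1, 9.7, 14.7 and 20.3 CPM in regenerated tissue, against 12.9, 16.2, 9.47, 1.15 and 8.71 CPM in native bladder. IFNG, interferon gamma, had 17 reads in regenerated tissue, in F2 and M2, and none in native bladder. By counting error alone this is at least 5.66-fold higher over the group. The log2 fold change of IFNG was 4.98 (SE 2.02), with an edgeR adjusted p of 0.928. JCHAIN, of secreted polymeric antibodies, averaged 88 ± 46.4 CPM in regenerated tissue, against 64.3 ± 68 CPM in native bladder. The B cell marker MS4A1 stayed under 1 CPM in regenerated tissue, with a highest value of 0.853 CPM. IRF1, a transcription factor of the interferon response, had a log2 fold change of 1.38 (SE 0.46), while IFIT1, an interferon target, had -0.87 (SE 0.43).

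The list of macrophages and dendritic cells had a median of -0.03 over 25 tested genes. At an unadjusted p under 0.05, 0 of them were higher and 1 lower. In this list F13A1 and VSIG4, a complement receptor of resident macrophages, had every regenerated value below every native one. Neither passed the test, and over all genes tested 90 (0.524%) were lower in that sense. F13A1 (ENSPANG00000017903), a subunit of coagulation factor XIII made by resident macrophages, stood at 2.92, 3.93, 3.45, 0.836 and 2.75 CPM in regenerated tissue, against 4.82, 4.67, 15.1, 8.88 and 6.74 CPM in native bladder. Each regenerated value lay below each native one, and on the log2 scale F13A1 differed by -1.53 (SE 0.57), with an edgeR adjusted p of 0.847. CD163, a haemoglobin scavenger receptor of resident macrophages, was lower in 4 of 5 animals with a mean of 4.81 ± 2.9 CPM in regenerated tissue, against 9.09 ± 3.87 CPM in native bladder. CD68, a general macrophage marker, was higher in 4 of 5 animals with a log2 fold change of 0.57 (SE 0.43). KIT (ENSPANG00000025525), the receptor of mast cells, interstitial cells and haematopoietic progenitors, stood at 10.6, 13.8, 10.1, 17.8 and 13.9 CPM in regenerated tissue, against 10.1, 5.4, 8.91, 1.84 and 2.3 CPM in native bladder. Its groups did not overlap, but the lowest regenerated and the highest native value were alike at the digits given. CPA3, a protease of mast cells, was higher in 3 of 5 animals with a log2 fold change of 1.02 (SE 0.63).

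Genes of the seeded cell types and their derivatives gave list medians between -0.31 and 0.00. In the list for haematopoietic stem and progenitor cells, with 16 tested genes, RUNX1, PROM1, MYB and KIT were higher at an unadjusted p under 0.05, and the list median was 0.00. CD34, which marks endothelium and stromal cells as well as progenitors, stood at 144, 109, 80.6, 67.9 and 54.3 CPM in regenerated tissue, against 100, 73.4, 181, 156 and 224 CPM in native bladder. It followed the division of muscle. PROM1, which epithelial glands also express, was at 86.8 CPM in M1 and 2.03 to 23.8 CPM in the other regenerated libraries, against 0.409 to 3.89 CPM in native bladder. RUNX1, also an epithelial and inflammatory gene, averaged 42 ± 24.8 CPM in regenerated tissue, against 12.3 ± 7.84 CPM in native bladder. The list of fibroblasts and mesenchymal stromal cells had 0 members at an unadjusted p under 0.05 and a median of -0.31. Among genes of bone and cartilage, SOX9 and RUNX2 were the 2 higher ones. SOX9, also a factor of glandular epithelium, was at 188 CPM in the regenerated tissue of M1 and at 3.29 to 23.2 CPM in the other 4, against 0.799 to 12.4 CPM in native bladder.

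Growth factors and metabolism showed smaller differences outside F2. VEGFA, the growth factor of vessels, was higher in 5 of 5 animals at 175, 789, 130, 264 and 209 CPM in regenerated tissue, against 119, 156, 79.4, 59 and 80 CPM in native bladder. On the log2 scale VEGFA was higher by 1.67 (SE 0.43), with an edgeR adjusted p of 0.426, and by 0.98 without F2. AREG, amphiregulin, a ligand of the EGF receptor, stood at 89.9, 588, 52.2, 83 and 150 CPM in regenerated tissue, against 50, 55.4, 26, 7.82 and 9.05 CPM in native bladder, also higher in each animal. Of 15 genes of hypoxia and glycolysis, 5 were higher at an unadjusted p under 0.05 and 0 lower, with a median of 0.28, and the list mean was higher in 5 of 5 animals by 0.10 to 1.07 log2 units. HK2, hexokinase, and PFKFB3, which makes an activator of glycolysis, had log2 fold changes of 2.64 (SE 0.82) and 2.04 (SE 0.64), and 0.93 and 0.59 without F2. Cell division genes had 0 of 19 members at an unadjusted p under 0.05 and a median of -0.10, and PLK1, a mitotic kinase, was at 38 CPM in the regenerated tissue of M1 and at 2.85 to 7.01 CPM in the other 4. The 13 tested genes of the mitochondrial genome and the 12 of the nuclear respiratory chain had medians of -0.14 and -0.18, with 0 members at an unadjusted p under 0.05.

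**Figure D4:**
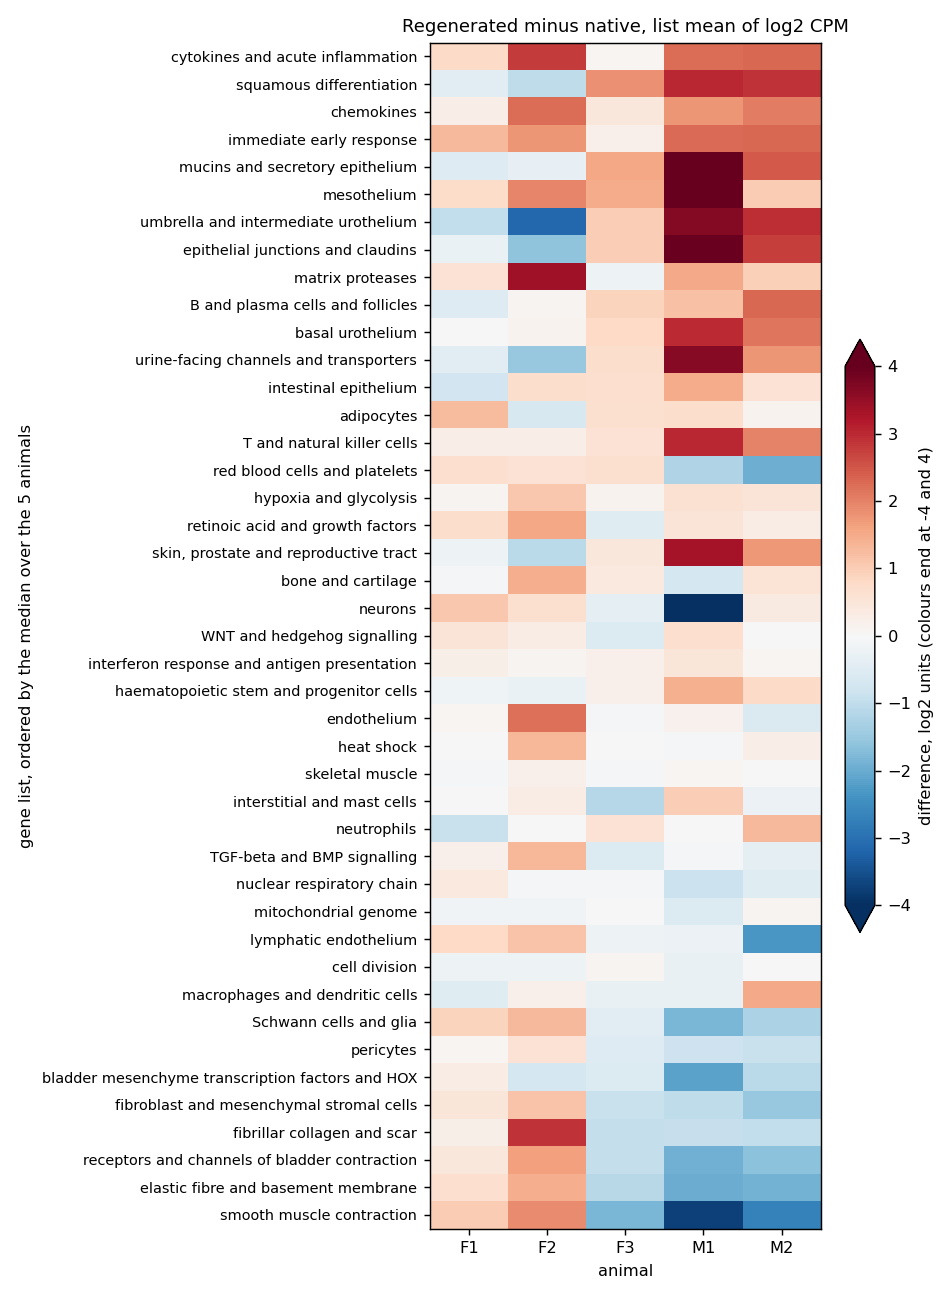
Difference between regenerated tissue and native bladder in the mean log2 CPM of each of 43 gene lists (rows) in each animal (columns), with red for higher and blue for lower in regenerated tissue. The rows of cytokines and acute inflammation and of immediate early genes are above 0 in all 5 columns, in F3 by as little as 0.08 and 0.20. Those of smooth muscle and elastic fibres are red in F1 and F2 and blue in F3, M1 and M2.

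Across the 43 lists, 7 had a higher mean in all 5 animals and 0 a lower one. The 7 were cytokines and acute inflammation, chemokines, immediate early genes, T and natural killer cells, interferon response and antigen presentation, hypoxia and glycolysis, and mesothelium. The smallest difference among these 7 lists was 0.08 log2 units, for cytokines in F3 and for the interferon list in M2. Another 9 were higher in F1 and F2 and lower in F3, M1 and M2, and 7 the opposite way. The mesothelial list held MSLN, named for M1, and HAS1, a hyaluronan synthase, at 306 CPM in F2 against at most 5.89 CPM in the other 9. Of the remaining lists, TGF-beta and BMP signalling had 3 of 21 members higher at an unadjusted p under 0.05, INHBA, GREM1 and FST, and 0 without the regenerated library of F2. B and plasma cells had 2 of 24 higher, PRDM1 and XBP1, transcription factors of plasma cells, with a median of 0.52. Without the regenerated library of F2 the count was 0 and the median 0.41. Intestinal epithelium had CDX2 and SLC5A1 of 20 and a median of 0.62. SLC5A1 was at 36.7 CPM in the regenerated tissue of M1 and at most 0.814 CPM in the other 9. The lists of pericytes, glia, red blood cells and fat had 0 in either direction. Fat was uneven, with PLIN1, the coat protein of fat droplets, at 131 CPM in the regenerated tissue of F1 and 13 to 57.1 CPM in the others, against 19.5 to 56.4 CPM in native bladder.

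Genes were also named by size of change, taking those with a symbol, a mean of at least 1 CPM, an unadjusted p under 0.05 and the same direction in 5 of 5 animals. This held 210 higher and 50 lower genes. The 12 with the largest positive values were IL6, CSF3, CXCL8, MMP13, FOSL1, SELE, STC1, TRIB3, LIF, DUOX2, GPRC5A and CDH26. STC1, a secreted glycoprotein induced by hypoxia, stood at 3.02, 260, 2.12, 63.4 and 8.8 CPM in regenerated tissue, against 2.18, 3.07, 1.4, 0.983 and 0.768 CPM in native bladder. CDH26, a cadherin of inflamed epithelium, stood at 3.7, 26.2, 4.21, 137 and 18.1 CPM in regenerated tissue, against 1.32, 3.62, 1.52, 2.74 and 1.92 CPM in native bladder. All regenerated values of CDH26 lay above all native ones, and F1 and F3 held the smallest differences for both genes. DUOX2, an oxidase that makes hydrogen peroxide at epithelial surfaces, did not overlap either, at 0.916, 4.82, 1.09, 24 and 1.05 CPM in regenerated tissue, against 0, 0.543, 0.759, 0.123 and 0 CPM in native bladder. GPRC5A, a receptor induced by retinoic acid, had a log2 fold change of 4.21 (SE 1.14), and TRIB3, a pseudokinase of the stress response, 5.19 (SE 1.88) and 1.28 without F2.

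The 12 with the largest negative values were ADH4, ASB16, DEPDC1, ZFP69B, MYO7A, SCN9A, ARHGEF39, F13A1, SALL2, HSD17B2, PRIM1 and ZNF775. Most were low in level. ADH4, an alcohol dehydrogenase that also oxidises retinol, stood at 1.76, 0.748, 1.66, 0 and 0 CPM in regenerated tissue, against 3.15, 1.54, 13.3, 12.4 and 15.7 CPM in native bladder. SCN9A, a sodium channel of sensory neurons, stood at 1.05, 0.748, 0.435, 1.73 and 0.659 CPM in regenerated tissue, against 2.16, 1.3, 2.6, 8.15 and 3.33 CPM in native bladder. HSD17B2, which inactivates oestradiol and testosterone, stood at 27.5, 3.55, 26.1, 10.5 and 21.6 CPM in regenerated tissue, against 55.5, 27.6, 28.9, 79 and 30.9 CPM in native bladder. The values of HSD17B2 did not overlap between the groups, by a narrow margin. On the log2 scale it differed by -1.31 (SE 0.62), with an edgeR adjusted p of 1. ZFP69B, a zinc finger protein, and ARHGEF39, an activator of small GTPases, did not overlap either, with log2 fold changes of -2.13 (SE 0.78) and -1.84 (SE 0.56). Without the regenerated library of F2 the values of ADH4, SCN9A and ARHGEF39 were -3.42, -1.85 and -1.70. Without the regenerated library of M1 they were -3.14, -2.28 and -1.93. With any 1 library left out, ADH4 ranged from -3.92 to -3.14, SCN9A from -2.28 to -1.34 and ARHGEF39 from -2.20 to -1.56. DEPDC1 ranged from -2.74 to -1.81, against -2.46 with all libraries, and was at 14.7 CPM in the native bladder of M1.

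**Figure D5:**
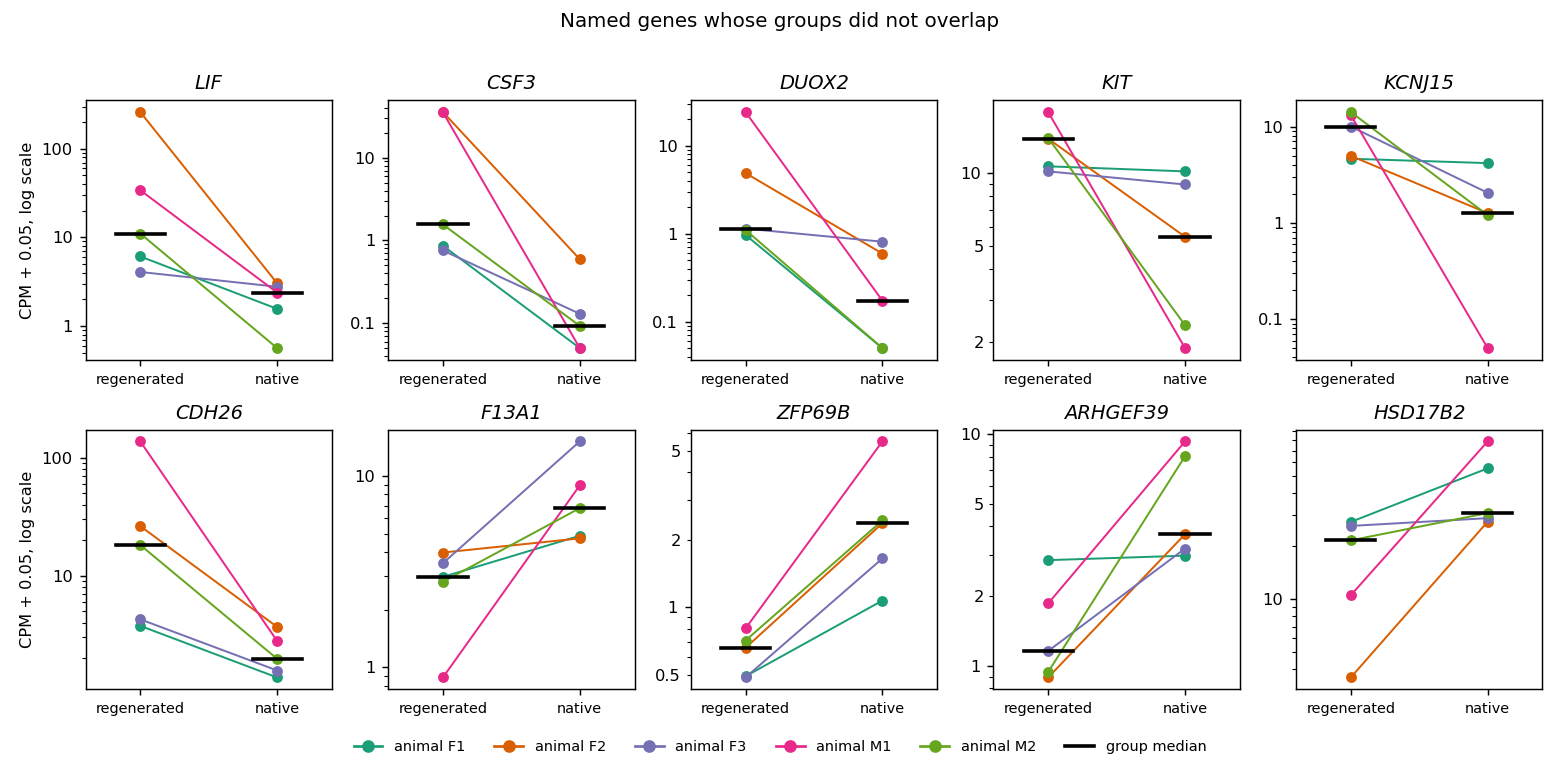
CPM (log scale, with 0.05 added) of 10 of the 12 named genes whose regenerated (left) and native (right) values did not overlap, with a line per animal and black bars at the medians. LIF, CSF3, DUOX2, KIT, KCNJ15 and CDH26 run down to native bladder and F13A1, ZFP69B, ARHGEF39 and HSD17B2 run up, with narrow gaps for KIT, ARHGEF39 and HSD17B2.

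Set against the other grafts, the SIS tissue lay nearer to its own native bladder than ileum did, and no difference from the PRS tissue was detected. The distance, 1 minus r within an animal, averaged 0.0825 ± 0.0571 in the SIS arm (range 0.0195 to 0.15, n = 5) and 0.07 ± 0.0385 in the PRS arm (range 0.0395 to 0.12, n = 4), with p = 0.714 in the two-sided exact permutation test and the same after adjustment over 2 comparisons. In the Entero arm it averaged 0.192 ± 0.0254 (range 0.159 to 0.215, n = 5), and the difference from the SIS arm had an exact permutation p of 0.00794, the smallest that 5 against 5 can give, and 0.0159 after adjustment. The ranges of the SIS and Entero arms did not overlap. The SIS change minus the PRS change passed edgeR's test for 0 of 17177 genes (0%), with 3.98% at an unadjusted p under 0.05, while DESeq2 called 5 higher and 15 lower. A p that misses the threshold does not show that the 2 grafts were alike. Among named genes with the smallest p in that contrast, MMP3 had a log2 fold change of 7.58 in SIS and -2.07 in PRS, HMOX1 4.62 and -0.45, and IL6 7.51 and 0.96, and all of these were highest in the regenerated tissue of F2. The cytokine list had a median of 2.20 in SIS and 0.47 in PRS, and the T and natural killer cell list 0.67 and -1.16. The smooth muscle list had -1.25 in SIS and -0.00 in PRS.

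The SIS change minus the Entero change passed edgeR's test for 616 genes higher (3.59%) and 511 lower (2.97%). Urothelial genes were among the first set. UPK1A had a log2 fold change of -0.07 in SIS and -8.27 in Entero, a difference of 8.20, and UPK2 and TP63 differed by 8.45 and 10.60. Positional genes were among them too, with HOXD13 at -2.06 in SIS and -12.70 in Entero. In the other direction VIL1 had 0.77 in SIS and 10.50 in Entero, a difference of -9.73, and the neuropeptide VIP differed by -12.21.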

How the data were processed

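Messenger RNA of 28 baboon bladder and graft libraries was sequenced with paired ends from directional dUTP libraries, per the labels' protocols. The deposited values are raw counts for each gene. The submitters' processing notes name featureCounts 1.5.0-p3, HISAT2 2.0.5 and StringTie 1.3.3b. The sources used here do not give the genome build, the annotation or the strand setting, so overlapping and antisense genes cannot be separated and no coordinates or sequences are printed.

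Of 27533 genes, 17177 passed filterByExpr (edgeR 4.0.16, R 4.3.3, minimum count 10), 15120 with a symbol. All 28 libraries entered 1 quasi-likelihood model with 6 groups and TMM scaling. SIS regenerated minus SIS native was 1 contrast, adjusted over all genes by Benjamini and Hochberg's method at 0.05. Standard errors were obtained by dividing the size of the log2 fold change by the root of its F statistic. Alternatives used DESeq2 1.42.0, limma 3.58.1, the animal as a block, and left out libraries. The steps were tested on simulated data. Exact tests used scipy 1.17.1. Floors and read ratios cover counting error only.

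The comparison and the 43 gene lists were chosen with earlier results of these data known, so lists are described by counts and medians only, beside those of all genes. Of 851 listed symbols 748 were tested, the others were not analysed here, and 11 were matched through older symbols. Named genes are the 12 largest differences each way as described, up to 4 members per list with the smallest p, and fixed cell type markers. Others, such as those of single libraries and further list members, were chosen after their values were seen. Pairing comes from the animal codes. The deviations of an animal's 2 libraries from their group means correlated between -0.14 and 0.33. Nothing says whether libraries of a group differ in batch. Some results are not reported here.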

Additional observations from a re-analysis of the deposited data

Results flagged for a closer look

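In 30 of 320 examined groups of 5 values of the named genes, 1 library lay outside the others by more than Dixon's 95% critical value. With the list means included this held in 39 of 409. Chance gives about 1 group in 20 for values that were not selected. Many of the named genes were chosen by these same values, so the counts cannot be read against that rate. The regenerated tissue of F2 held 15 of the 30 gene values. They were those of GATA3 (71.3 CPM), CDX2 (0.561 CPM), FMOD (417 CPM), MMP3 (814 CPM), PLAU (892 CPM), MMP1 (2092 CPM), FST (357 CPM), TGFB1 (425 CPM), CDH5 (74.9 CPM), NOS3 (40 CPM), CD68 (27.4 CPM), CCL2 (1196 CPM), HMOX1 (906 CPM), NRG1 (80.1 CPM) and TRIB3 (64.1 CPM). GATA3 was the value of F2 that lay below the others, and the other 14 lay above. The regenerated tissue of M1 stood out for BPIFB1 (286 CPM) and F13A1 (0.836 CPM), that of M2 for HOXD10 (0.659 CPM), that of F3 for CD8A (15.4 CPM) and that of F1 for CSF3R (0 CPM). Among native libraries that of M1 held 6 such values, KCNJ15 (0 CPM), BPIFB1 (0 CPM), FST (6.92 CPM), PRPH (43.8 CPM), STMN2 (57.1 CPM) and GZMB (1.15 CPM). That of F2 held MS4A1 (1.18 CPM), CXCL8 (4.19 CPM) and LRRN4 (0.241 CPM), and that of F1 held CKM (0.135 CPM). List means, in log2 CPM, stood out in 9 cases. The list of intestinal epithelium was at -3.64 in the regenerated library of F1. The list of fibrillar collagen and scar was at 9.43 in the regenerated library of F2. The list of matrix proteases was at 7.19 in the regenerated library of F2. The list of TGF-beta and BMP signalling was at 5.18 in the native library of F3. The list of endothelium was at 5.16 in the regenerated library of F2. The list of lymphatic endothelium was at 2.74 in the regenerated library of M2. The list of neurons was at 2.90 in the native library of M1. The list of chemokines was at 4.03 in the regenerated library of F2. The list of cell division was at 2.19 in the native library of F3.

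The SIS change minus the Entero change had an adjusted p under 0.05 in edgeR's interaction test for 37 named genes. The difference in log2 fold change was above 0 for UPK1A (8.20), UPK1B (7.86), UPK2 (8.45), UPK3A (8.04), GATA3 (4.65), TP63 (10.60), KRT13 (8.03), ACER2 (5.81), CD44 (1.95), KRT4 (9.44), DSG3 (8.07), CLDN1 (3.40), KCNJ15 (8.46), ADAMTS4 (6.51), HOXD13 (10.64), HOXD10 (7.68), PITX1 (3.38), LIF (4.51), IL6 (6.99), PTGS2 (5.18), PTX3 (6.34), CXCL8 (8.19), CXCL6 (7.83), BAG3 (1.68), HAS1 (8.73), RUNX1 (2.98), FOSL1 (8.44) and STC1 (5.29). It was below 0 for KRT20 (-7.49), DSC2 (-3.93), VIL1 (-9.73), PRPH (-7.98), NEFL (-9.46), VIP (-12.21), ARHGEF39 (-3.70), HSD17B2 (-4.35) and PRIM1 (-2.97). Both changes are graft minus the native bladder of the same arm.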

How the results depend on the processing

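The count of 0 genes that passed edgeR's test was also 0 with RLE size factors, with no filter on low counts, with the 10 SIS libraries alone, with the animal as a replicate block and without any 1 library. DESeq2 called 70 genes and limma voom with sample quality weights 2, and for the SIS change minus the PRS change DESeq2 called 20. With the replicate block 524 genes had an unadjusted p under 0.05, against 835 without it, and 0 passed after adjustment. Leaving out 1 library gave 486 to 1169 genes at an unadjusted p under 0.05, and leaving out 1 animal in the block 162 to 1104. Without the regenerated library of F2 the count was 622 and without the native library of M1 it was 486, the lowest. The median of the skeletal muscle list was 0.04, and -0.40 over genes with a mean of at least 1 CPM, -0.25 with the replicate block, and -0.36 to 0.07 without 1 animal. The urothelial median was 0.32, and -0.17 to 1.53 without 1 animal and 0.02 without the native library of M1. The cause was not tested. Of 3680 gene values under alternatives, 3542 kept their side and direction, 21 passed in an alternative and 117 changed sign without passing. The sign of the SIS minus PRS difference in distance turned when animal M1 was left out, and neither value passed the test. At these depths genes under about 1 CPM rest on few reads.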
